A study of Mus musculus with 16 samples.

Results

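Bdnf, Ntf3, Ntrk2, Ntrk3 and Ngfr, the genes of 2 neurotrophins and of 3 of their receptors, were read in nuclei of the mouse dentate gyrus (DG). These 5 genes were taken by symbol from the RNA rows of the deposited feature tables, which list 32285 genes, and each was present once in all 8 matrices (ENSMUSG00000048482, ENSMUSG00000049107, ENSMUSG00000055254, ENSMUSG00000059146 and ENSMUSG00000000120 in the order above). The study prepared RNA and open chromatin (ATAC) libraries from the same nuclei of microdissected, frozen DG, 1 Multiome library pair per mouse. The 4 WT mice carry the genotype written VV in the labels. The 4 V321L mice carry LL and are homozygous for a valine-to-leucine substitution in the growth factor gene Nrg1. Each genotype had 2 females (F1 and F2) and 2 males (M1 and M2). The labels used here state neither age nor strain. The substitution cannot be read from counts per gene, so the genotype labels could not be checked in these data.

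Neurotrophins are secreted proteins that keep neurons alive and adjust their synapses. BDNF, encoded by Bdnf, acts mainly through the receptor kinase TrkB (Ntrk2), neurotrophin 3, encoded by Ntf3, mainly through TrkC (Ntrk3), and all neurotrophins bind the p75 receptor (Ngfr). In the hippocampus Bdnf is known as a gene that neuronal activity induces from several alternative promoters, granule cells (GCs) store BDNF in their mossy fibre terminals, and astrocytes make a form of TrkB that lacks the kinase domain. Counts per gene do not separate these promoters or forms.

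The start of each gene was read on the mm10 build named in the labels. RefSeq (GRCm38.p6) gives Bdnf 7 start sites on the forward strand of chromosome 2, from position 109674700 to 109722921. Ntf3 has start sites at 126164960 and 126166744 on chromosome 6 (reverse strand), Ntrk2 at 58806569 on chromosome 13 (forward strand), and Ngfr at 95587698 on chromosome 11 (reverse strand). The feature table places the start of Ntrk3 at 78578408 on chromosome 7. The windows below, which run from 250 bases before to 50 bases after a start site, show the promoters on which the ATAC comparisons rest: a Bdnf site that lay under a peak in 7 of 8 libraries, a Bdnf site with no peak within 1 kb in any library, and the Ntrk2 and Ngfr sites. Each is written 5′ to 3′ on the strand of the gene, and the capitals mark ACGTCA, core letters of the cAMP response element, which were searched for on both strands (as ACGTCA or TGACGT).

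Bdnf, start site 3, chr2:109692186-109692485, forward strand: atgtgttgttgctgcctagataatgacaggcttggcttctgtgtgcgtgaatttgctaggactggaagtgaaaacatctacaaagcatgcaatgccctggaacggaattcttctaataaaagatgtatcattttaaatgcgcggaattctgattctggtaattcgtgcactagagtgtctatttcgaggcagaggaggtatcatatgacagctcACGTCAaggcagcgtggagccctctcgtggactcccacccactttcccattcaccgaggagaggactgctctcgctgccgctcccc
Bdnf, start site 6, chr2:109709133-109709432, forward strand: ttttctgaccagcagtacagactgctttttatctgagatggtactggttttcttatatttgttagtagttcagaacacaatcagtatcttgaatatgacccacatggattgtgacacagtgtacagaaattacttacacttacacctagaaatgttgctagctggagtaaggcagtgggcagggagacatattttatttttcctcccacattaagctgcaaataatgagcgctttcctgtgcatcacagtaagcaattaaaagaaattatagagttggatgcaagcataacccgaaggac
Ntrk2, chr13:58806319-58806618, forward strand: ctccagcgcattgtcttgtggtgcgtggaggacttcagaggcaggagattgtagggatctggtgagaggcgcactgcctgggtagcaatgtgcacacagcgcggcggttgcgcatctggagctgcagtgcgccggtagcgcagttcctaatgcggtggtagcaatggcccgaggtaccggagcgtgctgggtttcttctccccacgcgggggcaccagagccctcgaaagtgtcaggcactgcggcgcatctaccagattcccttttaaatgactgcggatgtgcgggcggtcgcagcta
Ngfr, chr11:95587649-95587948, reverse strand: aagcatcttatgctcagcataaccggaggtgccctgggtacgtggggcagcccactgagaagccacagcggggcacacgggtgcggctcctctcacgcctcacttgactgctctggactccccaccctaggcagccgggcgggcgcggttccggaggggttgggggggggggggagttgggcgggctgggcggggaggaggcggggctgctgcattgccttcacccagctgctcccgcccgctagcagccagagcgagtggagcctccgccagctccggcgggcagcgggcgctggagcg

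The motif occurred once in the third Bdnf window, 36 bases before the start site, and not in the windows of the other 6 Bdnf sites or of Ntf3, Ntrk2 and Ngfr. Of 32851 mouse promoter windows of the same length, 7.51% held it. The Ntrk2 and Ngfr windows were rich in CpG, with 23 CpG pairs each and a GC content of 61.3% and 71.7%, against a median of 7 pairs and 52.7% over all windows. The sixth Bdnf window held 2 CpG pairs at 38.7% GC, and the third 12 pairs at 48.7% GC.

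After the filters, 16379 nuclei remained, of which 10817 were GCs by their markers (6676 WT and 4141 V321L, 823 to 2449 per mouse). The V321L libraries were deeper: 15505354 to 23582057 RNA UMIs per library against 4326426 to 14624265 in WT, and a median of 3135.5 to 4651.5 UMIs per GC against 1037.5 to 1925. Barcodes with at most 100 UMIs, read as free RNA, held 2305 to 2642 CPM of the 9 GC markers in WT libraries and 800.2 to 983 CPM in V321L libraries. The same markers summed to 7124 to 8246 CPM in WT GCs and 5388 to 5943 CPM in V321L GCs, and reached 2860 to 4347 CPM in WT astrocytes (a class that may include radial glia) and 745 to 962 CPM in V321L astrocytes. In WT and V321L they came to 4834 to 6274 and 1206 to 2956 CPM in microglia, and to 5776 to 6395 and 3659 to 4480 CPM in oligodendrocytes, with all 9 detected in both genotypes of the 6 classes counted in every mouse, except Plk5 in WT oligodendrocytes and WT GABAergic neurons and C1ql2 in WT oligodendrocyte precursors (OPCs). Part of the oligodendrocyte sum was Dock10, at 2012 CPM in WT and 3061 CPM in V321L, above its 1066 and 1012 CPM in GCs. Dock10 was also part of the microglial sum, at 1227 CPM in WT and 1011 CPM in V321L. Any 2 libraries shared 1 to 13 barcodes. Levels are CPM, UMIs of the gene scaled to a class total of 1e+06, not divided by gene length, so they are compared between classes and groups and not between genes. A class was counted in a mouse only with at least 20 nuclei.

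Among neurons, Bdnf was read mainly in excitatory classes. In WT GCs its level was 111 CPM in F1, 70.7 in F2, 115 in M1 and 99.3 in M2, a mean of 99.0 ± 19.97 CPM (SD, n = 4). In V321L GCs it was 151, 132, 151 and 146 CPM, a mean of 145 ± 9.08 (SD, n = 4). All 4 V321L values lay above all 4 WT values, as for 5959 of the 12259 genes tested between the genotypes in GCs. WT CA3 neurons held 67.3 ± 18.4 CPM (SD, n = 4) and V321L CA3 neurons 121 ± 21.8 CPM in 2 mice, and CA1 neurons held 80.8 CPM in 2 WT and 84.6 CPM in 3 V321L mice. Mossy cells, counted in 2 WT mice, held 15.7 and 70.1 CPM. Immature granule neurons held 73.7 CPM in 2 WT and 58.8 CPM in 3 V321L mice, from 4 and 11 UMIs, and the excitatory neurons that no finer marker list placed held 36.3 and 52.0 CPM. GABAergic neurons held 8.09 CPM in WT and 7.99 CPM in V321L, from 6 UMIs in each genotype, and OPCs 10.7 and 3.75 CPM, from 2 UMIs and 1 UMI.

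In glia the mean Bdnf level was higher in the WT libraries. Microglia held 84.2 CPM in WT and 25.8 CPM in V321L, oligodendrocytes 48.9 and 18.2 CPM, and astrocytes 54.3 and 23.3 CPM, all from 8 to 32 UMIs per genotype and with overlapping mice. Vascular cells held 82.2 CPM in 2 WT and 38.1 CPM in 3 V321L mice, from 24 and 4 UMIs. The GC markers moved in the same direction in these 3 classes, and free RNA held 107 to 139 CPM of Bdnf in WT and 85.6 to 137 CPM in V321L libraries. Their part in the glial Bdnf was not tested. Over the 8 mice GCs exceeded microglia, the next class of the 6 counted in every mouse, in 7 mice, with a mean log2(CPM + 1) difference of 2.08 and an exact sign-flip p of 0.0156, which became 0.0625 after adjustment over the 20 neighbouring pairs compared for 4 genes. None of the lower Bdnf neighbours in that order (microglia, astrocytes, oligodendrocytes, GABAergic neurons, OPCs) differed beyond their spread, with exact sign-flip p of 0.148 or more.

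Ntf3 was read in GCs and hardly in pyramidal neurons. Its GC level was 34.9 CPM in F1, 47.6 in F2, 50.9 in M1 and 35.8 in M2 of WT (mean 42.3 ± 8.18, SD, n = 4) and 86.9, 84.7, 92.5 and 89.7 CPM in V321L (mean 88.4 ± 3.40, SD, n = 4). The 2 groups did not overlap, with V321L higher, as for 5959 of the 12259 genes tested in GCs. In CA3 neurons 1 UMI was counted over 4 WT mice and 4 UMIs over 2 V321L mice, which gave 0.412 and 3.58 CPM. V321L CA1 neurons held 5.17 CPM, from 5 UMIs. WT CA1 nuclei held none (0 of 125 nuclei, which allows a share of up to 2.40%), nor did mossy cells (0 of 119, up to 2.52%). These limits cover counting error only and bound the share of nuclei with a UMI, not of cells that express the gene. The unplaced excitatory neurons held 46.2 CPM in WT, from 8.40 to 65.7 over 3 mice, and 72.5 CPM in V321L, from 7.79 to 153 over 3 mice. Immature granule neurons held 15.1 CPM in 2 WT mice, from 1 UMI, and 57.1 CPM in 3 V321L mice. In the other classes 1 to 15 UMIs were counted per genotype, which gave 27.5 CPM in WT and 31.7 CPM in V321L microglia, 29.0 and 2.60 CPM in astrocytes, 24.2 and 5.81 CPM in oligodendrocytes, 27.3 and 21.3 CPM in vascular cells, 6.48 and 9.88 CPM in OPCs, and 2.78 and 10.5 CPM in GABAergic neurons. GCs were above microglia (29.6 CPM over all mice) in 7 of 8 mice, with the same exact p of 0.0156 and adjusted p of 0.0625 as for Bdnf, and the 4 lower neighbouring pairs did not differ beyond their spread (exact sign-flip p of 0.281 or more).

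**Figure D1:**
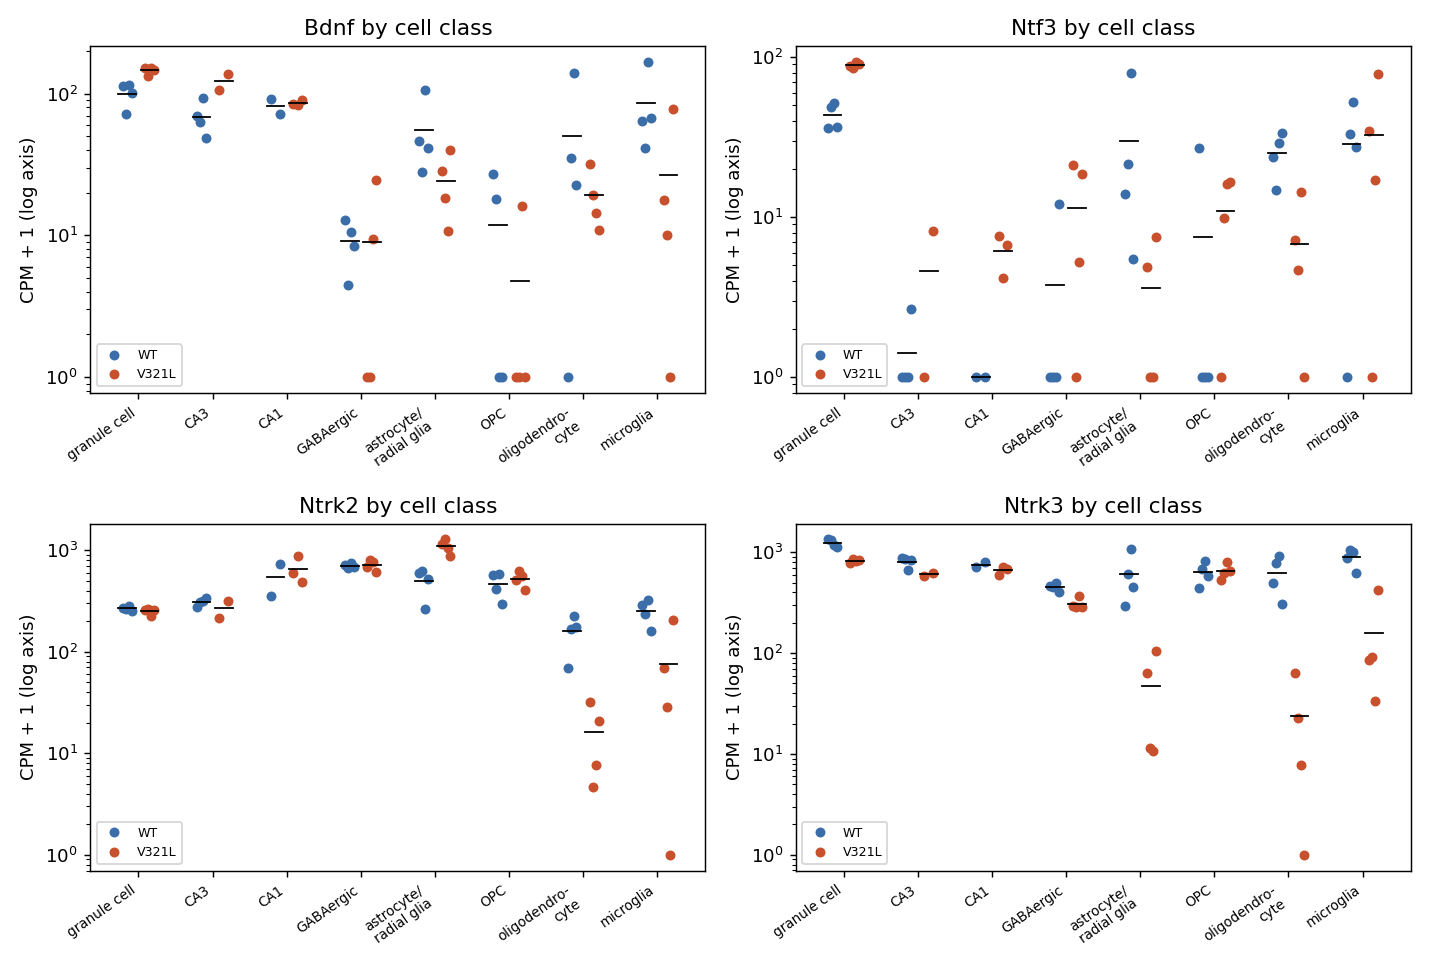
Levels of Bdnf, Ntf3, Ntrk2 and Ntrk3 (CPM + 1, log axis) in 8 cell classes, with 1 point per mouse that had at least 20 nuclei of the class, WT in blue and V321L in red, and the group mean as a black line. Ntf3 lies at 34.9 to 92.5 CPM in granule cells and at 0 to 7.17 CPM in CA3, and the V321L oligodendrocytes and astrocytes lie far below WT for Ntrk3.

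Ntrk2, the BDNF receptor gene, had its highest means over all mice in astrocytes (794 CPM) and GABAergic neurons (709 CPM) among the 6 classes counted in every mouse. GABAergic neurons held 700.3 ± 37.8 CPM in WT and 717 ± 86.9 CPM in V321L (SD, n = 4 each), and OPCs 463 ± 138 and 523 ± 88.9 CPM. Astrocytes held 260 to 623 CPM in WT and 871 to 1272 CPM in V321L. GCs held 271, 261, 283 and 251 CPM in WT F1, F2, M1 and M2 and 259, 264, 224 and 255.9 CPM in the V321L mice, so that the genotypes overlapped. CA1 neurons were at 539 CPM in WT and 647 CPM in V321L, CA3 neurons at 308 and 265 CPM, and WT mossy cells at 492 CPM. Unplaced excitatory neurons held 427 and 495 CPM, immature granule neurons 182 and 191 CPM, vascular cells 219.6 and 231 CPM, microglia 249.7 and 75.1 CPM, and oligodendrocytes 157 and 15.3 CPM. In all 8 mice GABAergic neurons exceeded OPCs, by 0.56 on the log2 scale, and OPCs exceeded GCs, by 0.89, each with an exact sign-flip p of 0.00781, the smallest that 8 mice allow, and an adjusted p of 0.0521. Astrocytes and GABAergic neurons, the highest pair, did not differ beyond their spread, with the astrocytes higher in 4 of 8 mice (exact sign-flip p = 0.945), which were the 4 V321L mice. Cajal-Retzius cells, with 5 to 19 nuclei per mouse and so not counted, held 878 to 2097 CPM from 9 to 23 UMIs.

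Ntrk3, the neurotrophin 3 receptor gene, had its highest mean levels in the granule lineage. GCs held 1341, 1332, 1189 and 1118 CPM in WT F1, F2, M1 and M2, a mean of 1245 ± 110 (SD, n = 4). V321L GCs held 785, 858, 827 and 835 CPM, a mean of 826 ± 30.5 (SD, n = 4), all below every WT value. In GCs 1886 of the 12259 genes tested lay wholly lower in V321L. Immature granule neurons held 1023 CPM in WT and 1000.5 CPM in V321L, WT mossy cells 953 CPM, CA3 neurons 807 and 603 CPM, and CA1 neurons 756 and 662 CPM. OPCs held 630.0 CPM in WT and 653 CPM in V321L, unplaced excitatory neurons 709 and 438 CPM, and vascular cells 762 and 328 CPM. GCs exceeded OPCs, the next class of the 6, in all 8 mice, by 0.68 on the log2 scale (exact sign-flip p = 0.00781, adjusted p = 0.0521).

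Ngfr was nearly absent from the RNA. GCs held 2 Ngfr UMIs among 29439351, in 2 of 10817 nuclei. All named classes together held 7 UMIs in 16376 nuclei, of which astrocytes, microglia and oligodendrocytes had 1 each and the unplaced excitatory neurons 2. No UMI was found in CA3 (0 of 963 nuclei, which allows a share of up to 0.312%), GABAergic neurons (0 of 485, up to 0.619%), OPCs (0 of 308, up to 0.974%) or CA1 (up to 0.935%), limits again on nuclei with a UMI. Ngfr was therefore below the count filter in every test, and no difference in it was detectable at this depth.

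By the shape of their levels over 12 classes in WT mice (Pearson r of log2(CPM + 1), 13629 genes), the genes most like Bdnf were Slit3 (r = 0.946), Pop5 (0.920) and Arid1b (0.910). Those most like Ntf3 were Hlf (0.930), Npnt (0.913) and Trpm3 (0.909), and those most like Ntrk2 were Abca7 (0.904), Thrb (0.896) and Pcdhb18 (0.889). Ntrk3 had no close match, with St7 at 0.826, Dipk1a at 0.814 and Plxna4 at 0.806. The 12 points of each come from the same 4 libraries, and the classes differ in depth.

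The genotypes were then compared within each class, with UMIs summed per mouse. In GCs, Ntf3 rose in the V321L genotype by a log2 fold change of 0.61 ± 0.14 (SE, edgeR's quasi-likelihood test with Benjamini-Hochberg adjustment over all genes tested, adjusted p = 0.00160). Ntrk2 fell by 0.55 ± 0.10 (SE, edgeR adjusted p = 1.73e-04) and Ntrk3 fell by 1.06 ± 0.12 (SE, edgeR adjusted p = 5.54e-06). Bdnf had a log2 fold change of 0.12 ± 0.12 (SE, edgeR adjusted p = 0.391). Thus 1 of 4 tested members rose and 2 fell, while 70.3% of the 12259 genes tested were called, 38.5% as higher and 31.8% as lower, so a call was the usual outcome here. Free RNA differed between the genotypes in the same directions for these 3 members. It held 6.74 to 17.8 CPM of Ntf3 in WT and 44.0 to 67.9 CPM in V321L libraries. For Ntrk2 it held 225 to 370 and 112 to 152 CPM, and for Ntrk3 330 to 421 and 87.0 to 127 CPM. The part of free RNA in the GC differences was not tested. The GC class joined 5 clusters in which the genotypes were unequally placed. The cluster led by C1ql2 held 1486 WT and 2634 V321L nuclei, and 2 clusters led by Glis3 held 2186 and 448 and 1667 and 143. A finer clustering of GCs, described further on, gave 11 clusters, which were compared with the nuclei of a genotype pooled and no test. By CPM, Ntf3 and Bdnf were higher in V321L in 11, Ntrk3 was lower in 11 and Ntrk2 was lower in 7. CPM follows library size and not the TMM scaling of the fold changes above. By library size, 6700 genes were called higher and 2100 lower in V321L GCs. How many other genes were higher in all 11 clusters was not counted, and the part of cluster placement was not tested. CPM values of the genotypes did not overlap for 3 of the 4, Bdnf, Ntf3 and Ntrk3, as for 64.0% of all genes tested. Of the 12259 genes, 5959 lay wholly higher in V321L, like Bdnf and Ntf3, and 1886 wholly lower, like Ntrk3.

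The calls of Bdnf and Ntrk2 depended on how libraries were scaled. TMM scaling put the median of all genes at 0.12 and scaling by library size put it at 0.58, and the called genes split into 4724 higher and 3898 lower under the first and 6700 and 2100 under the second. By library size Bdnf rose by 0.56 (edgeR adjusted p = 0.00279), Ntf3 by 1.07 and Ntrk2 no longer passed at -0.087 (edgeR adjusted p = 0.344), while Ntrk3 still fell by 0.59. With every nucleus thinned to 1000 UMIs under TMM, the log2 fold changes of Ntf3, Ntrk2 and Ntrk3 were 0.50, -0.62 and -1.12, all past the threshold, and that of Bdnf was 0.035 (edgeR adjusted p = 0.845). Relative to the median of all genes, Bdnf was therefore at about the same place under both scalings. Without WT F2, the mouse with the least Bdnf, its fold change was -0.015 under TMM.

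The genotype difference in GCs also ran with the length of the gene. Genes spanning under 10 kb had a median log2 fold change of 1.72, those of 30 to 100 kb -0.21, and those over 300 kb -1.09, with 96.0% of this last bin called lower. Bdnf (52.3 kb) and Ntrk3 (401 kb) lay within the middle range of genes of their length, between the quartiles of -0.63 and 0.22 and of -1.34 and -0.83. Ntf3 (65.4 kb) lay above the upper quartile of its bin, 0.22, and Ntrk2 (327 kb) above that of its own, -0.83. RNA depth differed between the genotypes in the same samples, and its part in these values was not tested.

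**Figure D2:**
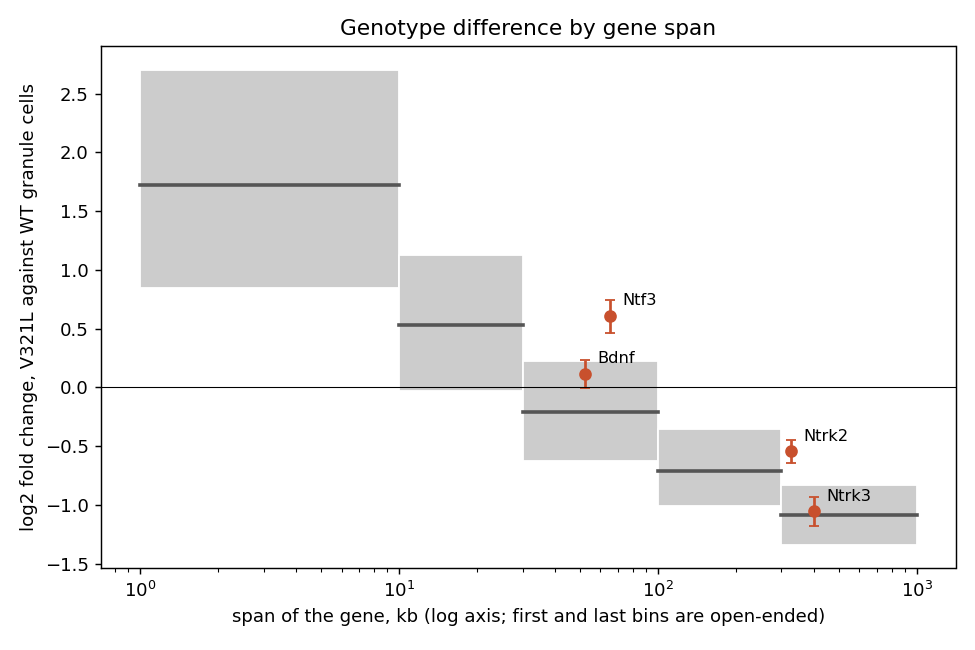
Log2 fold change of V321L against WT granule cells (points, with SE) by the span of the gene in kb (log axis), over the median (grey line) and quartiles (grey band) of all tested genes in each bin of span. Longer genes had lower values, from a median of 1.72 under 10 kb to -1.09 over 300 kb, and Ntf3 and Ntrk2 lie above the band of their bin.

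The share of GCs with at least 1 UMI was read at full depth and at equal depth. For Bdnf it was 18.0, 9.92, 11.5 and 16.6% in WT and 31.6, 39.7, 41.9 and 35.01% in V321L, with no overlap (14.0 ± 3.91% against 37.1 ± 4.64%, SD, n = 4 each, two-sided exact permutation p = 0.0286, the smallest that 4 against 4 allow). In oligodendrocytes the share of nuclei with a Bdnf UMI was 5.14% in WT and 1.82% in V321L at a median of 782 to 937 and 885 to 1298 UMIs. This class also carried GC markers, so it gives no clean floor. With every GC thinned to 1000 UMIs, which left out 19.3 to 46.7% of WT and 1.25 to 6.14% of V321L GCs, the Bdnf share was 9.50% in WT and 13.4% in V321L (exact permutation p = 0.0857). The Ntf3 share was 6.95 ± 1.11% against 27.5 ± 5.37% at full depth (SD, n = 4 each), and 4.25% against 8.40% after thinning, with an exact permutation p of 0.0286 both times. Oligodendrocytes held 3.27% and 0.487% for Ntf3. Ntrk2 went from 32.8 ± 5.43% against 52.5 ± 6.23% at full depth (SD, n = 4 each, exact permutation p = 0.0286) to 22.6% against 20.3% after thinning (exact permutation p = 0.0571). For Ntrk3 the direction turned, from 74.6 ± 6.69% in WT against 87.7 ± 5.34% in V321L at full depth (SD, n = 4 each) to 66.5% against 51.4% after thinning, each with an exact permutation p of 0.0286. Adjusted over the 5 members, these exact p of 0.0286 became 0.0357 at full depth and 0.0714 after thinning.

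Outside GCs only the receptors passed the count filter. In astrocytes Ntrk2 was at 599, 623, 260 and 519 CPM in WT F1, F2, M1 and M2 and at 1160, 1272, 1049 and 871 CPM in V321L. The groups did not overlap, and the log2 fold change was 1.11 ± 0.25 (SE, edgeR adjusted p = 0.00120). Astrocyte Ntrk3 was at 293, 606, 1068 and 457 CPM in WT and 62.3, 10.4, 9.80 and 104 CPM in V321L, and fell by 3.66 ± 0.52 (SE, edgeR adjusted p = 1.64e-05). Both tested members were thus called, beside 52.2% of the 3728 genes tested in astrocytes. The GC markers summed to 2860 CPM or more in each WT and at most 962 CPM in each V321L astrocyte sample, and Ntrk3 was higher in WT GCs than in any glial class. WT GCs held 251 to 283 CPM of Ntrk2. The part of GC RNA in the Ntrk2 and Ntrk3 differences of astrocytes was not tested.

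Oligodendrocytes and microglia gave the same order for Ntrk3. In oligodendrocytes it was at 497, 775, 921 and 305 CPM in WT and 62.2, 21.9, 6.70 and 0 CPM in V321L, and fell by 4.52 ± 0.54 (SE, edgeR adjusted p = 8.00e-06), beside 53.0% of 2622 genes called. One oligodendrocyte cluster that carried GC markers held 95 WT and 5 V321L nuclei, and without it, an alternative chosen after seeing the data, Ntrk3 no longer passed the count filter and 425 genes were called. In microglia Ntrk3 was at 622 to 1047 CPM in WT and 32.2 to 424 CPM in V321L and fell by 2.32 ± 0.62 (SE, edgeR adjusted p = 0.00847), while Ntrk2 was at -1.59 ± 0.66 (edgeR adjusted p = 0.0599), beside 55.5% of 1774 genes called. The microglial GC markers moved in the same direction (4834 to 6274 CPM against 1206 to 2956), and their part was not tested.

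In WT GABAergic neurons the GC markers summed to 1269 to 1397 CPM and in WT OPCs to 1740.1 to 2096 CPM, the lowest of the 6 classes counted in every mouse. In GABAergic neurons Ntrk2 was at -0.037 ± 0.16 (SE, edgeR adjusted p = 0.879). Ntrk3, at 455 ± 39.99 CPM in WT and 308 ± 39.9 CPM in V321L (SD, n = 4 each), fell by 0.63 ± 0.17 (SE, edgeR adjusted p = 0.00855), beside 36.4% of 3691 genes called. By library size this fall was 0.42 and did not pass (edgeR adjusted p = 0.0662). In OPCs neither Ntrk2 (0.49 ± 0.25, edgeR adjusted p = 0.162) nor Ntrk3 (0.29 ± 0.23, edgeR adjusted p = 0.383) passed, beside 24.6% of 1192 genes called.

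Sorcs3, a sortilin-type receptor gene, and Penk, the enkephalin precursor gene, mark subsets of GCs, and the members were compared between nuclei with and without a UMI of each, within every mouse. Sorcs3-positive GCs numbered 79 to 240 per mouse. Their Bdnf level against that of Sorcs3-negative GCs was 276 against 78.5 CPM in WT F1, 200 against 53.5 in WT F2, 343 against 97.6 in WT M1 and 246 against 80.8 in WT M2. In V321L it was 317 against 125 in F1, 280 against 109 in F2, 333 against 126 in M1 and 309 against 123 in M2. Bdnf was higher in the positive nuclei of all 8 mice, by 1.55 ± 0.07 on the log2 scale (SE, edgeR adjusted p = 2.83e-56, exact sign-flip p = 0.00781, the smallest that 8 mice allow). Positive nuclei were the deeper ones, with median UMIs of 1186 to 4711 against 1032 to 4632.5 in negative nuclei, and against negative nuclei drawn to match their depth the difference was 1.62. In WT F1 the drawn negatives stayed shallower (2438 against 2827 UMIs). It was 2.04 with positive nuclei held to at least 2 Sorcs3 UMIs.

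Ntrk2 was also higher in Sorcs3-positive GCs, by 0.57 ± 0.06 (SE, edgeR adjusted p = 1.42e-15), but unevenly. The positive and negative nuclei held 274 and 270.0 CPM in WT F1 and 226 and 223 CPM in V321L M1, almost level, and 475 and 269 CPM in WT M1 and 421 and 239 CPM in V321L F2. Ntf3 did not pass (0.025 ± 0.11, edgeR adjusted p = 0.942), nor did Ntrk3 (-0.10 ± 0.04, edgeR adjusted p = 0.0965), which was lower in 7 of 8 mice (exact sign-flip p = 0.0156). So 2 of 4 tested members rose and none fell, against 14.0% of 9273 genes called, 7.33% higher and 6.66% lower. By gene length, the bin medians ran from -0.017 under 10 kb to 0.017 over 300 kb. The share of genes called ran from 2.21% lower and 3.49% higher under 10 kb to 27.6% and 29.1% over 300 kb, the bin of Ntrk2 and Ntrk3.

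The Bdnf difference by Sorcs3 status was 1.59 to 1.88 on the log2(CPM + 1) scale in the 4 WT mice and 1.33 to 1.40 in the 4 V321L mice. Sorcs3 itself was at 92.7 to 135 CPM in WT GCs and 56.9 to 69.5 CPM in V321L GCs, which were deeper. A threshold of 1 Sorcs3 UMI may thus not select the same nuclei in both genotypes. The interaction of status and genotype for Bdnf was -0.38 ± 0.14 (SE, edgeR adjusted p = 0.726). None of the 4 tested members was called for the interaction, where 0.0216% of genes, 2 of 9273, were called and 495 had an unadjusted p under 0.05.

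Penk-positive GCs were fewer, 14 to 26 per WT and 46 to 95 per V321L mouse. Their Bdnf level against that of Penk-negative GCs was 416 against 104 CPM in WT F1, 137 against 70.2 in WT F2, 363 against 111 in WT M1 and 165 against 98.6 in WT M2, with 5 to 34 Bdnf UMIs in the positive nuclei. In V321L it was 358 against 134, 214 against 125, 471 against 131 and 221 against 141 CPM in F1, F2, M1 and M2. Bdnf was thus higher in the positive nuclei of all 8 mice, by 1.17 ± 0.15 (SE, edgeR adjusted p = 2.20e-12, exact sign-flip p = 0.00781). With nuclei thinned to 1000 UMIs, Penk status was read again from the thinned counts. This left 6 to 11 positive nuclei per WT and 12 to 34 per V321L mouse. The difference was then 0.75 and did not pass (edgeR adjusted p = 0.171).

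The other members did not pass in the Penk comparison, with -0.040 for Ntf3 (edgeR adjusted p = 0.961), -0.14 for Ntrk2 (edgeR adjusted p = 0.768) and -0.40 ± 0.15 (SE) for Ntrk3 (edgeR adjusted p = 0.105). In this comparison the bin medians fell from -0.019 under 10 kb to -0.22 over 300 kb, and Ntrk2 and Ntrk3 lay between the quartiles of that last bin, -0.47 and 0.034. So 1 of 4 tested members rose and none fell, against 5.66% of 8734 genes called, 1.79% higher and 3.87% lower. Penk-positive GCs also held more Sorcs3, by 1.97 ± 0.15 (SE, edgeR adjusted p = 4.08e-38), so the 2 comparisons share nuclei.

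**Figure D3:**
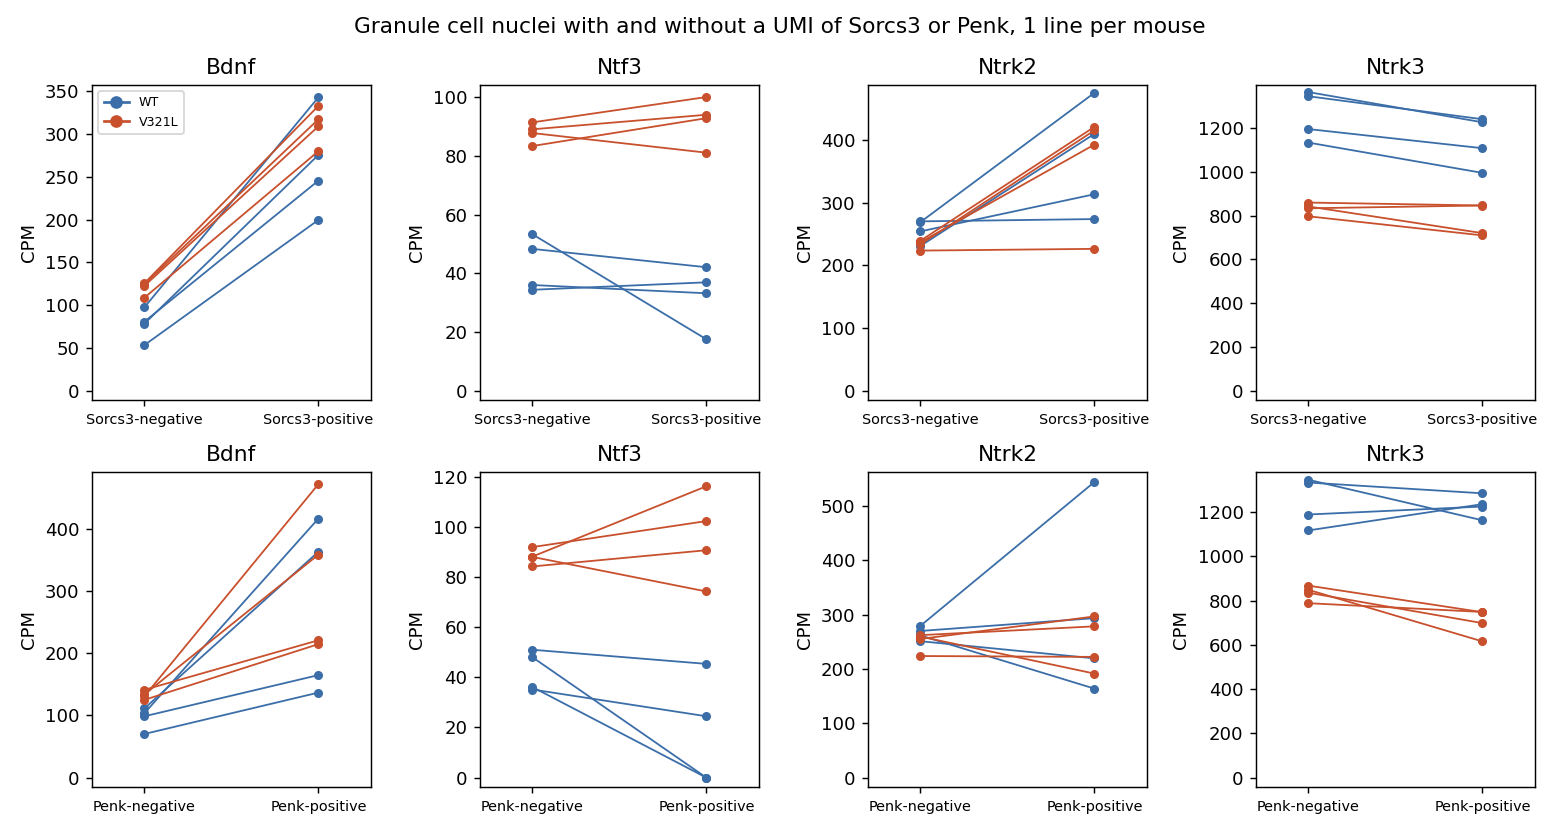
Levels of the 4 detected members (CPM) in granule cell nuclei without and with a UMI of Sorcs3 (upper row) or Penk (lower row), with 1 line per mouse, WT in blue and V321L in red. The Bdnf lines rise in all 8 mice for both genes, and the Ntrk2 lines of WT F1 and V321L M1 are almost flat for Sorcs3.

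GCs were clustered without the members, the pathway genes, Sorcs3 and Penk, which left 11 clusters. The highest Bdnf levels fell in 2 small ones. One of them (55 WT and 64 V321L nuclei), led by Cartpt and Pcsk1, the genes of a neuropeptide and of a prohormone convertase, held 558 CPM of Bdnf in WT and 614 CPM in V321L, 1131 and 979 CPM of Ntrk2, and 2566 and 972 CPM of Sorcs3. In every mouse its Bdnf level, 469 to 826 CPM from 10 to 20 nuclei, was above that of the GCs as a whole. The other (47 WT and 20 V321L nuclei), whose leading genes included the activity-induced Arc, Nptx2 and Inhba, held 707 and 920 CPM of Bdnf, 566 and 847 CPM of Ntrk2, and 3143 and 1219 CPM of Sorcs3. The remaining 9 clusters ran from 40.1 to 212 CPM for Bdnf, from 177 to 328 CPM for Ntrk2 and from 3.42 to 267 CPM for Sorcs3. Without these 2 clusters, an alternative chosen after seeing the data, Sorcs3-positive GCs still held more Bdnf (1.11, edgeR adjusted p = 6.74e-32), whereas Ntrk2 no longer passed (0.082, edgeR adjusted p = 0.576) and Ntrk3 was lower (-0.24, edgeR adjusted p = 3.41e-06).

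**Figure D4:**
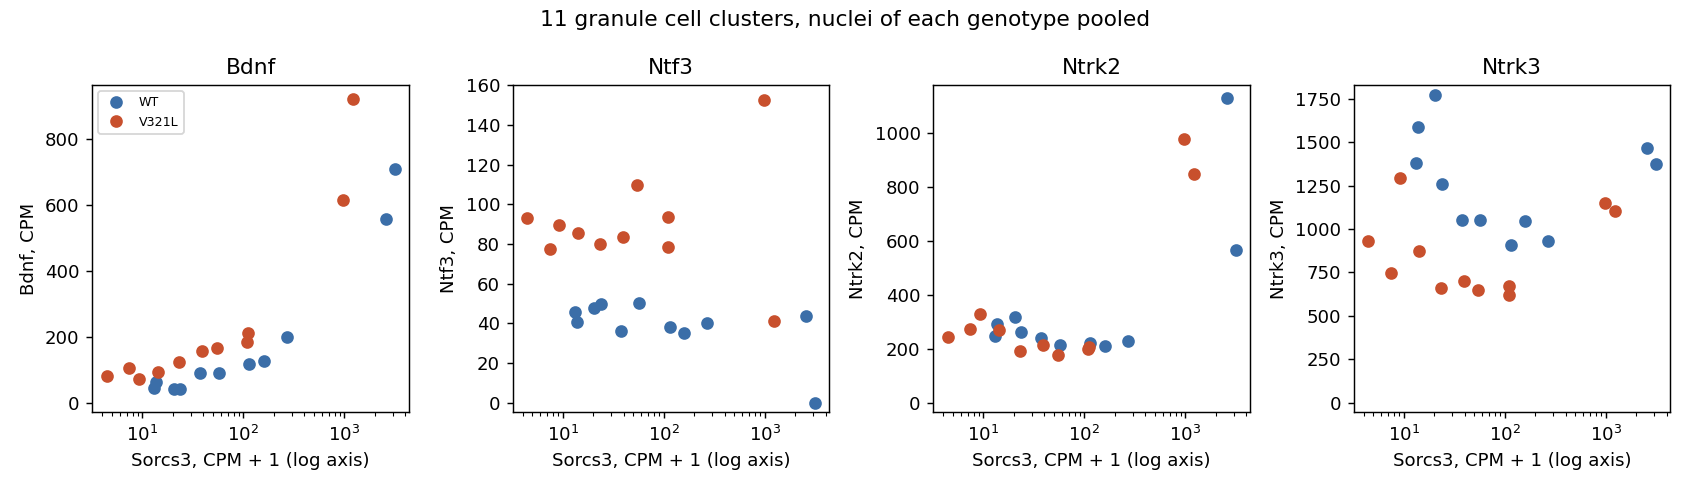
Levels of the members (CPM) against Sorcs3 (CPM + 1, log axis) in 11 granule cell clusters, with the nuclei of each genotype pooled into 1 point per cluster, WT in blue and V321L in red. The 2 clusters with the most Sorcs3 hold 558 to 920 CPM of Bdnf, and the other 9 hold 40.1 to 212 CPM.

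Within GCs, none of the other members passed a comparison of nuclei with and without a Bdnf UMI. Those with one held 278 CPM of Ntrk2 against 252 CPM in the other GCs, higher in 7 of 8 mice (exact sign-flip p = 0.0234, adjusted p = 0.0703 over 6 pairs), and 979 CPM of Ntrk3 against 1056 CPM, higher in 1 of 8 mice (exact sign-flip p = 0.0156, adjusted p = 0.0703). Ntf3 was at 61.7 CPM in nuclei with Bdnf and 66.7 CPM in those without (exact sign-flip p = 0.328).

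Of 94 other genes of neurotrophin processing, reception and signalling, 78 were tested between the genotypes in GCs, of which 29 rose, 29 fell and 20 did not pass, with a median log2 fold change of 0.075 against 0.12 for all genes. Over all genes 38.5% were called higher and 31.8% lower, so the counts by role below are to be read against a background of 70.3%. Gene length was not accounted for in these counts or in the genes named. In this comparison the median log2 fold change ran from 1.72 under 10 kb to -1.09 over 300 kb. Of 7 tested co-receptors 1 rose and 3 fell: the Nogo receptor gene Rtn4r by 2.24 and Sorcs3 by -1.37 were the largest (edgeR adjusted p = 3.69e-07 and 6.06e-06). Of 11 partners of the p75 receptor 7 rose and 3 fell, led by a rise of Bex3 (3.26) and a fall of the kinase gene Mapk10 (edgeR adjusted p = 1.29e-06). Of 6 genes of proneurotrophin processing and release 3 rose and 2 fell, with the convertase genes Pcsk7 at 0.76 and Pcsk5 at -1.01. Of 17 genes of the Ras and MAP kinase arm 5 rose and 8 fell (Hras 3.94, Sos1 -1.09), and of 12 of the PI3 kinase and Akt arm 4 rose and 4 fell (Akt2 0.48). Among 9 adaptors 3 rose and 3 fell (Shc2 1.305, Gab2 -1.22), among 9 regulators of Bdnf transcription 2 rose and 5 fell (Crtc1 0.95, Camk4 -1.49), and among 7 genes that neurotrophins induce 4 rose and 1 fell (Junb 2.10, Homer1 -1.37).

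In Sorcs3-positive GCs 19 of 70 tested pathway genes rose, 4 fell and 47 did not pass, beside 7.33% higher and 6.66% lower over all genes. The largest changes were a rise of the sortilin-type Sorcs1 (3.47), of the secreted neuropeptide precursor gene Vgf (1.89), of the adaptor gene Shc3 (1.49) and of Lingo1 (1.28), a partner of the Nogo receptor, with edgeR adjusted p of 6.35e-08 or less. In Penk-positive GCs 4 of 65 rose and 2 fell, beside 1.79% and 3.87% over all genes, led by Sorcs1 (2.95), Sorcs3 (1.97), Sorcs2 (-1.11) and Spry2 (1.04), the last a feedback inhibitor of receptor kinases. Vgf, Sorcs1, Sorcs3 and Spry2 also stand on a list the study drew from Penk-positive nuclei of these samples, so their direction is no independent evidence.

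Open chromatin was read in the peaks over these start sites, which the authors called in each library separately. A peak lay over the third Bdnf start site in 7 of 8 libraries (not V321L M2), over the seventh in 5 and over the second in V321L F1. The Ntrk2 site lay under a peak in all 8 libraries and the Ngfr site in 7. Ntf3 had one over its first site in WT M1 and V321L M1, and Ntrk3 in V321L M1. ATAC depth was uneven, with 36556 peaks in V321L M2 and 130470 in V321L M1. Median ATAC counts per GC ran from 1977 in WT F2 to 13322 in V321L M1. The part of depth in which libraries held a peak was not tested.

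At the third Bdnf site GCs held 17.3 ± 3.17 ATAC CPM (SD, n = 7), the counts in that peak scaled like the RNA, with 20.3, 18.6, 15.8 and 15.2 in WT F1, F2, M1 and M2 and 22.3, 14.4 and 14.2 in V321L F1, F2 and M1. GABAergic neurons held 1.46 and OPCs 1.23, from 3 ATAC counts each over the 7 mice. Microglia held 4.23, from 11 counts, and astrocytes 5.79, from 17, where GCs had 833. Each of these 4 classes was below GCs in 7 of 7 mice (exact sign-flip p = 0.0156, adjusted p = 0.0335 over 15 comparisons). Oligodendrocytes held 8.30, from 14 counts, below GCs in 5 of 7 mice (exact sign-flip p = 0.0625, adjusted p = 0.104). CA3 neurons held 14.3 in 5 mice and CA1 neurons 36.2 in 4. GCs, CA3 and CA1 neurons thus had the highest means of the 8 classes at this site, and held more Bdnf RNA than GABAergic neurons. Microglia, astrocytes and oligodendrocytes had lower means at the site. Their mean Bdnf RNA over all mice (55.0, 38.8 and 33.5 CPM) was also above that of GABAergic neurons (8.04 CPM). CA3 and CA1 neurons were not tested there, and oligodendrocytes ranged from 0 to 30.6 over mice.

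The Ntrk2 site held 37.2 ± 4.78 ATAC CPM in GCs (SD, n = 8), 43.7 in GABAergic neurons, 55.0 in OPCs and 29.1 in astrocytes, none apart from GCs by the test, and less in oligodendrocytes (8.94) and microglia (12.2), each with an adjusted exact sign-flip p of 0.0335. The Ngfr site held counts in classes with at most 2 Ngfr UMIs. There oligodendrocytes held 24.1 ATAC CPM, GABAergic neurons 21.3 and GCs 3.22. Oligodendrocytes exceeded GCs at Ngfr in 7 of 7 mice (exact sign-flip p = 0.0156, adjusted p = 0.0335), and for GABAergic neurons p was 0.172.

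**Figure D5:**
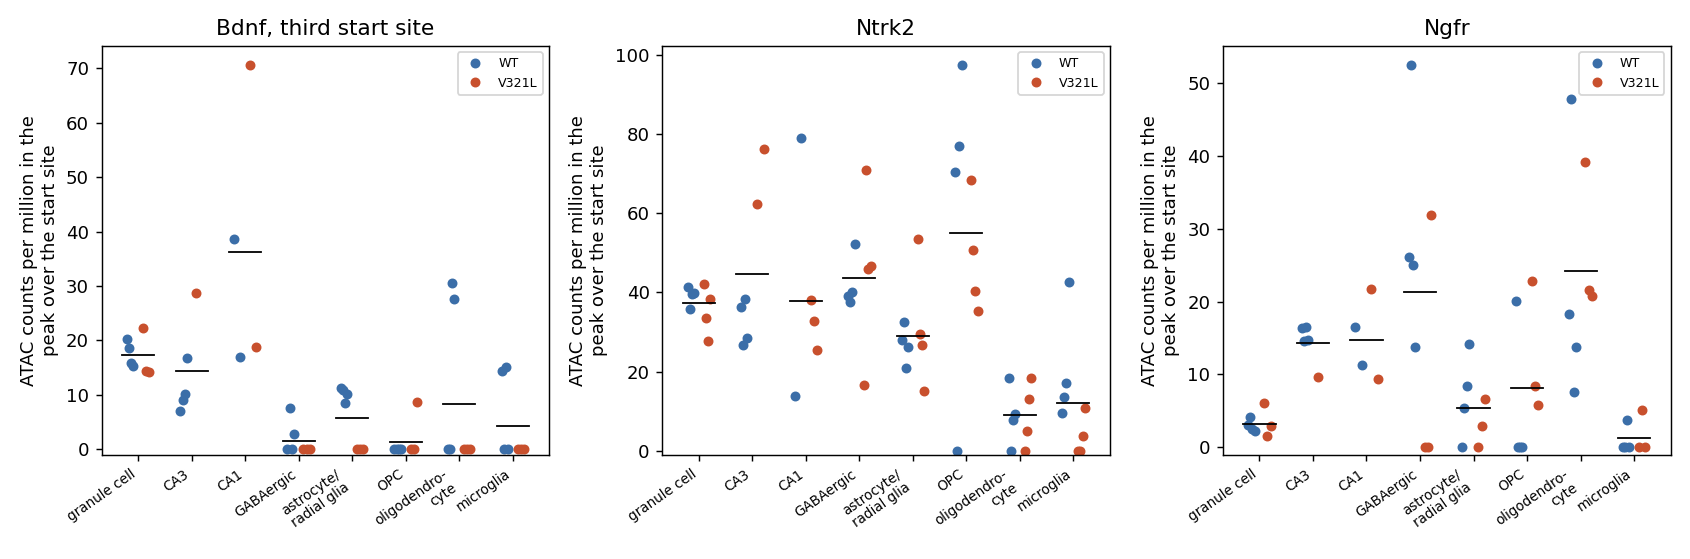
ATAC CPM in the peak over the third Bdnf start site, the Ntrk2 start site and the Ngfr start site in 8 cell classes, with 1 point per mouse whose library had the peak (WT in blue, V321L in red) and the mean over mice as a black line. At Bdnf the granule cells lie between 14.2 and 22.3, and at Ngfr they average 3.22 against 24.1 in oligodendrocytes.

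None of 4 promoter comparisons between the genotypes passed in GCs. The share of GCs with a count in a peak within 1 kb of a start site was read at full ATAC depth. For Bdnf it was 21.3 ± 9.44% in WT and 28.7 ± 19.4% in V321L (SD, n = 4 each, exact permutation p = 0.543). With each GC thinned to 1000 ATAC counts it was 8.61% and 8.71% (exact permutation p = 0.914). At full depth the share was 16.1% and 17.9% for Ntrk2 (exact permutation p = 0.771), and 1.77% and 2.68% for Ngfr (exact permutation p = 0.600). For Ntf3, with 2 mice of each genotype, it was 3.85% and 4.93%, a design whose smallest exact p is 0.333. Bdnf peaks in Sorcs3-positive and other GCs differed by less than the spread of the mice, with 118 against 108 ATAC CPM and a mean log2 difference of 0.10 ± 0.33 (SD, n = 8, exact sign-flip p = 0.430). At the third site alone the values were 17.5 and 17.3 (n = 7, exact sign-flip p = 0.859).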

How the data were processed

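The authors deposited, for each of 8 mice, a barcode-by-feature matrix of raw counts, which are UMIs for the 32285 genes and ATAC counts for the peaks of that library. The labels name Cell Ranger, Seurat, Signac and mm10, without versions. Every column belonged to a labelled sample, and the ranges of RNA and ATAC depth are given above.

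Barcodes with 500 to 8916.1 UMIs, 250 to 3307.526 genes, a mitochondrial share below 2.787142% and at least 500 ATAC counts were kept (17015), and 636 likely doublets, with a simulated-doublet score above the mean + 2 SD, were removed. The upper limits took a larger share of barcodes from each V321L library than from any WT library. They cut V321L F1, F2, M1 and M2 from 2872, 2463, 1953 and 2501 barcodes to 2062, 2019, 1515 and 1589. WT went from 1947, 3857, 2025 and 2408 to 1834, 3762, 1981 and 2253. Without these limits 9040 of 12818 genes were called between the genotypes in GCs. Nuclei were clustered (scanpy 1.11.5, leidenalg 0.10.2) and classes named from fixed marker lists. UMIs were summed per mouse and class and tested with edgeR 4.0.16 (quasi-likelihood, TMM, filterByExpr, Benjamini-Hochberg over all genes tested, threshold 0.05). Sorcs3 and Penk status were compared within mice, with mouse as a block. Single values were tested by exact permutation or exact sign-flip tests over mice, two-sided. DESeq2 1.42.0, other scalings, filters, depths and left-out mice were alternatives. The fits were tested on simulated data with known changes. Promoter sequences came from RefSeq GRCm38.p6, which held no window for Ntrk3. The members, marker lists, pathway list and tests were chosen with earlier results of these data known. Named pathway genes were, per role, the called genes with the largest rise and fall at 10 CPM or more in the genotype comparison, and the 4 called genes with the largest change in the Sorcs3 and Penk comparisons. One gene that this rule names is not reported here.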

Additional observations from a re-analysis of the deposited data

Results flagged for a closer look

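Of 80 groups of 4 mice screened, 6 held a mouse far from the other 3, where chance flags about 1 in 20 groups. In 3 of them the value is a single class with few UMIs: Bdnf in OPCs of V321L M1 at 15.02 CPM, Ntf3 in GABAergic neurons of WT M2 at 11.1 CPM and Ntf3 in OPCs of WT F1 at 25.9 CPM, each with the other 3 mice at 0. Ntrk3 in GABAergic neurons was 367 CPM in V321L M1 and 284 to 292 CPM in the other V321L mice. Ntrk3 in microglia was 424 CPM in V321L M2 and 32.2 to 90.9 CPM in the other V321L mice, and the granule cell markers in microglia were also highest in V321L M2 among these, at 2956 CPM against 1206 to 1786 CPM. The Ntrk2 difference between Sorcs3-positive and Sorcs3-negative granule cells, on the log2(CPM + 1) scale, was 0.018 in V321L M1 and 0.73 to 0.83 in the other V321L mice. In this mouse the cluster led by Cartpt and Pcsk1 held 365 CPM of Ntrk2, against 731 to 1419 CPM in the other V321L mice.

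For 2 genes all V321L mice lay on one side of the WT mice in one class and on the other side in another. Ntf3 was higher in V321L granule cells (88.4 against 42.3 CPM) and lower in V321L oligodendrocytes (5.81 against 24.2 CPM, from 4 and 7 UMIs). Ntrk2 was higher in V321L astrocytes (1088 against 501 CPM) and lower in V321L oligodendrocytes (15.3 against 157 CPM). The difference between the classes was not tested in either case. In granule cells the genotypes did not overlap for 64.0% of all genes tested, with 5959 of 12259 higher in V321L and 1886 lower. That share was not counted in astrocytes or oligodendrocytes, where 52.2% and 53.0% of genes tested were called. How many genes lie on opposite sides in 2 classes was not counted either, so this is not shown to be particular to these 2 genes. Granule cell markers were higher in WT than in V321L in both astrocytes and oligodendrocytes, and their part was not tested either.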

How the results depend on the processing

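Of the compared values and counts, 720 alternatives kept direction and side of the threshold, 27 reversed, 29 lost and 14 gained a call, and 8 counts of calls moved by over 1.5 times. V321L nuclei were deeper, Ngfr could not be tested, and glial values of Bdnf and Ntf3 rest on few UMIs. The cause of the changes below was not tested, except that fewer mice, nuclei or UMIs entered where a setting leaves them out. For granule cells 8622 genes were called between genotypes, and 5415 in males only. For oligodendrocytes 1390 became 425 without the cluster with granule cell markers. For Sorcs3 status 1298 became 402 at 1000 UMIs and 698 in WT mice only. For Penk status 494 became 2422 with no filter on low counts, 312 with positives at 2 or more UMIs, 164 at 1000 UMIs and 156 in WT mice only. Only V321L mice entered the Penk setting of 2 or more UMIs. At 1000 UMIs Sorcs3 and Penk status were read again from the thinned counts.

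Scaling by library size gave 0.56 for Bdnf and -0.087 for Ntrk2 in granule cells, and 0.17 for Ntrk2 and -0.42 for Ntrk3 in GABAergic neurons. Bdnf ranged from -0.015 (without WT F2) to 0.17 with each mouse left out, and the calls of Ntf3, Ntrk2 and Ntrk3 held without any 1 mouse. Ntf3 was 0.46 in females only (edgeR adjusted p = 0.0770). No neighbouring pair of classes passed under any of 3 settings. A single pair at 0.00781, the smallest exact sign-flip p that 8 mice allow, could not pass alone after adjustment over all pairs. The lack of calls therefore does not show that neighbouring classes were alike.

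For Sorcs3 status, Ntf3 turned to -0.022 with the marker gate per nucleus, -0.070 with no filter, -0.075 without the 2 clusters highest in Sorcs3 and -0.18 in WT mice only, and ran from -0.038 to 0.046 with each mouse left out. Ntrk2 was 0.082 without those 2 clusters. Ntrk3 passed at -0.16 with depth-matched nuclei, -0.12 by library size, -0.12 with the marker gate, -0.20 with no filter and -0.24 without the 2 clusters, turned to 0.021 with positives at 2 or more UMIs, and ran from -0.14 to -0.097 with each mouse left out, passing without V321L M2 (-0.13) and without WT M1 (-0.14).

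For Penk status, Bdnf was 0.75 at 1000 UMIs, where status was read from the thinned counts. Ntf3 turned to 0.028 with depth-matched nuclei, 0.013 by library size, 0.11 with positives at 2 or more UMIs and 0.085 in V321L mice only, and ran from -0.10 to 0.037 with each mouse left out. Ntrk2 turned to 0.018 under DESeq2, 0.034 by library size, 0.43 with positives at 2 or more UMIs and 0.023 in V321L mice only, and passed at -0.37 with no filter. The setting of 2 or more UMIs also held V321L mice alone, because WT mice had 1 to 3 such nuclei each, under the minimum of 5. Ntrk3 passed at -0.23 with depth-matched nuclei, -0.61 with no filter, -0.77 at 1000 UMIs, -0.23 in V321L mice only and -0.39 without the 2 clusters.

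The V321L minus WT difference in the share of granule cells with a UMI was, for Bdnf, 3.91 percentage points at 1000 UMIs and 1.58 at 500. For Ntrk2 it was -2.27 and -0.57, and for Ntrk3 -15.2 and -10.4. At 2 or more UMIs it was 18.7 for Ntrk3, and with each mouse left out it ran from 9.87 to 15.3, with an exact p of 0.0571, except without V321L F1. At 1000 ATAC counts per nucleus the promoter share differed by -0.11 points for Ngfr and -1.67 for Ntrk2.

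The labels number the mice F1, F2, M1 and M2 in both genotypes and do not say that a number pairs them. Same-numbered mice had correlations from -0.12 to 0.26, 1 of 4 over 0.1, so the numbers were not read as pairs. With them as a replicate block 8413 genes were called in granule cells, with 0.12 for Bdnf, 0.62 for Ntf3, -0.54 for Ntrk2 and -1.04 for Ntrk3. The block changed no call of a member in any class.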
